A study of Mus musculus with 15 samples.

Results

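The colonic response of Irf1-/- mutants to combined azoxymethane and dextran sodium sulfate (AOM/DSS) was measured by comparing 3 Irf1-/- colons collected on day 26 (D26) with 3 colons of untreated Irf1-/- mutants. All 12692 genes of the count table that held these 6 libraries were included, out of 15 libraries in 5 groups of 3 in the whole experiment. The mutants lacked Irf1 in all tissues and were on a C57BL/6 (B6) background, so that the controls of this comparison carried the same inactivated gene as the treated mice. Treated mice received 7 mg/kg of the carcinogen AOM intraperitoneally on day 1 and 2% of the epithelial irritant DSS in drinking water over 4 days, from day 8 to day 11, and D26 precedes the appearance of tumors. Mice of 8 to 10 weeks of age were used for this model. The labels do not give the sex of the mice, and each library is 1 colon. Total RNA of the distal colon was depleted of ribosomal RNA and sequenced. The counts of the 6 libraries summed to between 22478813 and 22586446 reads in genes. Whether they had been brought to a common depth before deposit was not tested. No pair of libraries of a group agreed within sampling noise (their counts gave a chi-square of 8.53 to 37.6 times its degrees of freedom).

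Irf1 encodes a transcription factor of the interferon regulatory factor family, which is induced by interferon gamma and acts on genes of antigen processing, guanylate-binding proteins and other antimicrobial defences. In the colon, AOM alkylates the DNA of epithelial cells, and DSS breaks the epithelial barrier, which brings luminal bacteria into contact with myeloid cells of the lamina propria. The damaged mucosa recruits monocytes, produces acute phase and complement proteins, and is covered again by spreading and dividing epithelial cells.

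The genes that rose in Irf1-/- colons after AOM/DSS included genes of macrophages and other myeloid cells, complement, chemokines, TNF receptors and epithelial repair. At a fold change (FC) of at least 1.5 and an adjusted p under 0.01, 26 genes were upregulated and 6 were downregulated at D26, which is 0.205% and 0.0473% of the genes tested (quasi-likelihood test of edgeR, adjusted over all genes after Benjamini and Hochberg, as is every adjusted p here). At an adjusted p under 0.05 without regard to FC, 190 genes (1.5%) rose and 111 (0.875%) fell. These last 2 verbs are used below only for genes that passed this threshold. An unadjusted p under 0.05 was seen for 2361 of the 12692 genes, and with DESeq2, an alternative test, 467 rose and 340 fell. The counts of list members below at an unadjusted p or with DESeq2 are to be read beside these. Levels are given as CPM, the reads of a gene scaled to a common library size with TMM factors. The median log2 FC of all genes was 0.01, and 51.8% of genes had a positive log2 FC. All D26 libraries lay above all untreated ones for 12.5% of genes and below them for 12.6%. In 6 of the 26 upregulated and 2 of the 6 downregulated genes every library of the lower group was under 5 CPM, so that these genes met the filter on low counts through the group where they were high. The upregulated ones were Prss22, Eya2, Wfdc18, Lgi2, Gp49a and Bcl2a1b, and the downregulated ones were Sftpb and Acsm2. The same was so for 16 of the 190 genes that rose, Tnfrsf11b among them, and for 9 of the 111 that fell. The numbers of upregulated, downregulated, risen and fallen genes changed when a single mouse was left out. Without untreated mouse 1, 2 and 3 in turn, 1, 0 and 0 genes were upregulated, 0 were downregulated each time, and 19, 23 and 11 rose and 3, 4 and 3 fell, while 1761, 1568 and 1768 had an unadjusted p under 0.05. Without D26 mouse 1, 50 genes were upregulated and 11 downregulated (197 rose and 160 fell). Without D26 mouse 2 these were 2 and 3 (73 and 40), with 1135 genes higher and 1173 lower at an unadjusted p under 0.05, and without D26 mouse 3 they were 24 and 8 (238 and 151). The counts in the gene groups below moved too. Without untreated mouse 1, 2 and 3 in turn, 2, 4 and 2 macrophage genes rose (20 with all mice), 1, 2 and 1 complement genes (9), 0, 1 and 0 chemokine genes (6) and 3, 1 and 0 epithelial repair genes (6), and 0 of the cytokine, TNF receptor, mast cell and squamous genes each time (6, 3, 2 and 3). Without D26 mouse 2, 6 macrophage, 4 complement, 2 chemokine, 3 cytokine and 1 TNF receptor genes rose.

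**Figure D1:**
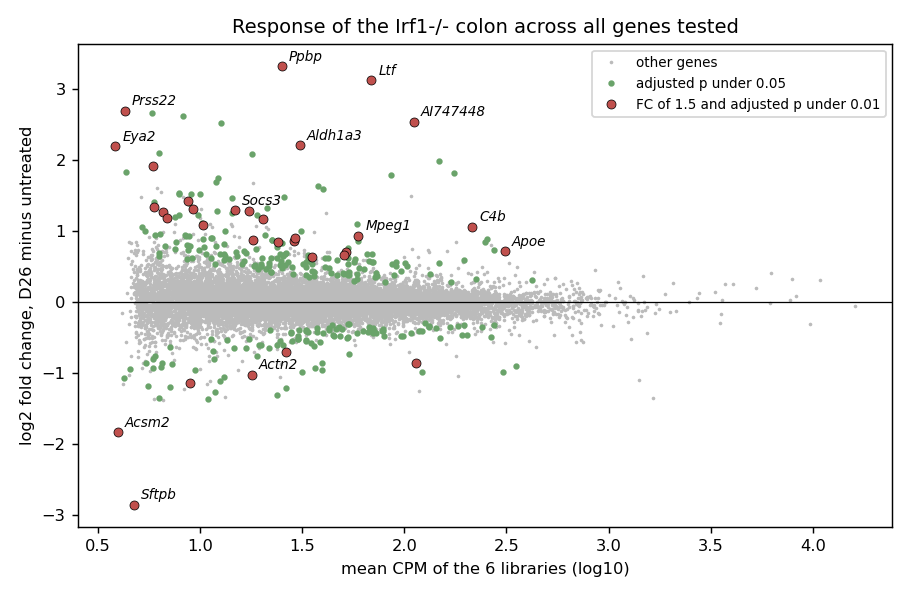
Response of the Irf1-/- colon across all 12692 genes, plotted as the log2 FC between D26 and untreated mutants against the mean CPM (log10) of the 6 libraries. The 26 upregulated and 6 downregulated genes are the large red points, genes with an adjusted p under 0.05 are green, and Ppbp, Ltf and Prss22 had the highest log2 FC among the upregulated genes (3.33, 3.12 and 2.70). Prss22 met the filter on low counts through the D26 mice alone.

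Irf1 itself was counted in all 6 libraries, at 79.3, 117 and 87.3 CPM in untreated mutants and at 109, 123 and 100.03 CPM at D26. These levels overlapped (log2 FC 0.23, adjusted p = 0.437). Every one of the 9 B6 libraries held more, from 128 to 228 CPM, which goes with the labels, although the gene counts do not show from which part of the mutated gene the remaining reads came. The libraries carried the genes of distal colon epithelium. Cdx1, an intestinal transcription factor, was at 155 to 191 CPM, Epcam, an epithelial adhesion protein, at 1224 to 1368 CPM, and Hoxb13, a marker of the hindgut, at 217 to 307 CPM, and none of the 3 passed the test (log2 FC -0.08, 0.08 and -0.31). D26 mouse 1 stood apart in the level of Xist, the RNA of the inactive X chromosome, which was at 11.6 CPM there and at 888 to 2315 CPM in the other 5 mutants. It was also the library farthest from the untreated ones on the first principal component, and values without it are given beside many of the results below.

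Letters recognised by transcription factors of inflammation were searched on both strands in the 250 bases before the gene starts given by RefSeq (build GRCm38.p6), for the 120 of the 190 risen genes and the 9363 of all 12692 genes that had an entry. These were TTCNNNGAA for STAT factors, GAAA and GAAA with any 2 bases between for the IRF family, GGG and TTTCC with any 2 bases between for NF-kB and TGACTCA for AP-1. The STAT letters were in 11.8% of 152 promoters of risen genes and 5.97% of 11962 promoters of all genes. The IRF letters were in 4.61% and 2.5%, those of NF-kB in 2.63% and 1.53%, and those of AP-1 in 3.95% and 3.53%. Among the 19 promoters of upregulated genes, 10.5% held the STAT letters and none held the other 3. These shares are descriptions, and letters in a promoter do not show that a factor bound there. The windows of 4 risen genes are printed 5′ to 3′ on the gene's strand, because they hold the STAT or IRF letters and their genes carry parts of the response described below: a brake on cytokine signalling, an adhesion molecule of leukocytes, a TNF receptor and the phagocyte oxidase. The matching letters are in capitals, as STAT letters for Socs3 (chr11:117969367-117969616, minus strand) and Icam1 (chr9:21015690-21015939, plus strand), and as IRF letters for Tnfrsf1b (chr4:145246871-145247120, minus strand) and Cybb (chrX:9469325-9469574, minus strand).
Socs3: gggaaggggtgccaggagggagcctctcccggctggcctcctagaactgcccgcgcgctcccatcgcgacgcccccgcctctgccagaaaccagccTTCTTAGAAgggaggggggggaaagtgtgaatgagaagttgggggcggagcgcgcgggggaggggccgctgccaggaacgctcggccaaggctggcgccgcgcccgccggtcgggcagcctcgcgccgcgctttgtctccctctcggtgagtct
Icam1: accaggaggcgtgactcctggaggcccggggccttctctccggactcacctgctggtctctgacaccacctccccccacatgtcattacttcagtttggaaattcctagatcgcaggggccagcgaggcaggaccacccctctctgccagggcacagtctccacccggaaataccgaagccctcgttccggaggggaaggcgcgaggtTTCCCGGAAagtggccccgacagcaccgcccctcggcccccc
Tnfrsf1b: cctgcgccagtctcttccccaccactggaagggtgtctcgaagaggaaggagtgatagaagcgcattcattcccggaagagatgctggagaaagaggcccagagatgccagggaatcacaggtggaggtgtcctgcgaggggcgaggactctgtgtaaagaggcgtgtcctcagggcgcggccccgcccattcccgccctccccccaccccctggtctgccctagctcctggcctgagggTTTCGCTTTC
Cybb: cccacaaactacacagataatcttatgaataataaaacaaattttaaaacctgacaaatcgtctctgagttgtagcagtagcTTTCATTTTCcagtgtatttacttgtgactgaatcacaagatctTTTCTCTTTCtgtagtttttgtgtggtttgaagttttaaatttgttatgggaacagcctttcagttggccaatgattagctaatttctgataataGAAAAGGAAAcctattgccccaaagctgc
The STAT letters lay 154 bases before the start of Socs3 and 42 before that of Icam1. Tnfrsf1b had the IRF letters 10 bases before its start, and the STAT letters 181 bases before it. Cybb had the IRF letters at 3 places, from 168 to 29 bases before its start.

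Genes of monocytes and macrophages made up the group with the most members that rose. Of 37 listed genes 32 were tested, 20 rose and 0 fell, with 30 positive log2 FC and a median of 0.59. Mpeg1, the pore-forming protein of phagocytes, was at 41.6, 40.2 and 40.8 CPM in untreated mutants and at 71.3, 82.1 and 80.9 CPM at D26. Its levels were nearly the same in the untreated mice and higher in every treated mouse (log2 FC 0.93, standard error (SE) 0.072, adjusted p = 0.00328). Sirpa, the myeloid receptor for CD47, was at 38.7, 40.2 and 39.7 CPM before and at 65.7, 62.9 and 64.4 CPM after treatment, again without overlap (log2 FC 0.70, SE 0.059, adjusted p = 0.00407). Apoe, a lipid carrier made by tissue macrophages, rose from 235 ± 13.5 to 385 ± 32.0 CPM (mean ± SD of 3 mice, log2 FC 0.71, adjusted p = 0.00713). Lyz1 (log2 FC 0.66), a lysozyme of Paneth cells that shares near-identical sequence with macrophage Lyz2 (0.59), and Fcgr2b, the inhibitory receptor for IgG (0.87), were also higher in every D26 library.

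Other myeloid genes that rose were Csf1r, the receptor that maintains macrophages (log2 FC 0.56), Itgam and Itgb2, the chains of the Mac-1 integrin (0.62 and 0.53), Tyrobp, a signalling adaptor (0.88), Cd68, an endosomal glycoprotein (0.73), Msr1, a scavenger receptor (0.93), and Gpnmb, a glycoprotein of lipid-loaded macrophages (1.48). Cybb, the catalytic chain of the phagocyte oxidase, was at 16.8, 23.02 and 19.8 CPM in untreated mutants and at 33.6, 33.01 and 29.2 CPM at D26, with no overlap (log2 FC 0.68, SE 0.12, adjusted p = 0.0322). Ccr2 and Cx3cr1, the chemokine receptors of inflammatory and resident monocytes, had log2 FC of 0.69 and 0.46. Members that did not pass included Cd163, a scavenger receptor of resident macrophages, at 18.2, 21.7 and 26.3 CPM before and 12.6, 15.9 and 18.03 CPM after treatment (log2 FC -0.51, adjusted p = 0.146), and Cd14 (0.11, adjusted p = 0.60). The summed level of the 32 genes lay between 1259 and 1434 CPM in untreated mutants and between 1843 and 2016 CPM at D26. Without D26 mouse 1, 17 of the 32 rose (the adjusted p of Itgb2 was 0.0641), and without D26 mouse 2, 6 did. Over all mice left out in turn the median stayed between 0.50 and 0.63. In bulk tissue, more cells of a type and more RNA per cell cannot be told apart.

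Outside this list, the paired immunoglobulin-like receptors Lilrb4 and Gp49a were upregulated in parallel. Lilrb4 was at 6.48, 6.99 and 6.42 CPM before and 13.8, 14.5 and 13.8 CPM after treatment, and Gp49a at 3.77, 4.27 and 4.62 CPM and then 10.4, 9.24 and 9.15 CPM (log2 FC 1.08 and 1.19, adjusted p = 0.00665 and 0.00845). The groups did not overlap for either gene, and the sequences of these 2 genes are so alike that reads could have been divided between them. Bcl2a1b, a survival protein of leukocytes from a cluster of near-identical genes, was upregulated (1.27, adjusted p = 0.00713). The C-type lectins Clec4n and Clec7a, which bind fungal glucans and mannans, rose from 4.71 ± 1.13 to 11.05 ± 0.381 CPM and from 5.73 ± 1.25 to 11.1 ± 1.97 CPM (log2 FC 1.23 and 0.95, adjusted p = 0.0175 and 0.0449). Without D26 mouse 1, the adjusted p of Clec7a was 0.0677. The other 3 tested genes of dendritic cells and lectins (5 of 19 listed) did not pass.

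Granulocyte genes were few in the table. Of 27 listed neutrophil genes, 8 were tested and Ltf alone rose. Ltf encodes lactoferrin, an iron-binding protein that neutrophils and glandular epithelia make. It was at 20.9, 7.93 and 13.6 CPM in untreated mutants and at 74.3, 137 and 158 CPM at D26, and its lowest treated value was above its highest untreated one (log2 FC 3.12, SE 0.36, adjusted p = 0.00713). Cxcr2, the chemokine receptor that guides neutrophils, had a log2 FC of -0.34 (adjusted p = 0.059), and Csf3r, the receptor for G-CSF, of -0.04 (adjusted p = 0.83). S100a8, S100a9 and Il1b were not in the table, which held only genes of at least 5 CPM in 3 or more libraries.

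Mast cell proteases of mucosal type rose strongly but unevenly. Mcpt1 was at 2.26, 5.48 and 3.48 CPM in untreated mutants and at 35.6, 15.2 and 13.8 CPM at D26, and Mcpt2 at 1.29, 2.27 and 1.19 CPM and then 17.9, 5.42 and 6.83 CPM. D26 mouse 1 held the highest level of both, and all 3 treated mice were above all untreated ones. Their log2 FC were 2.53 (SE 0.42, adjusted p = 0.0273) and 2.66 (SE 0.49, adjusted p = 0.0342), and 1.96 and 1.95 without D26 mouse 1 (adjusted p = 0.014 and 0.0128). Kit, which is also the receptor of interstitial cells of Cajal, was the only other tested gene among 14 listed for mast cells (log2 FC 0.21, adjusted p = 0.118). Mcpt1 and Mcpt2 reached 5 CPM in 3 libraries only with the D26 mice, so that the filter favoured a high median of this list.

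**Figure D2:**
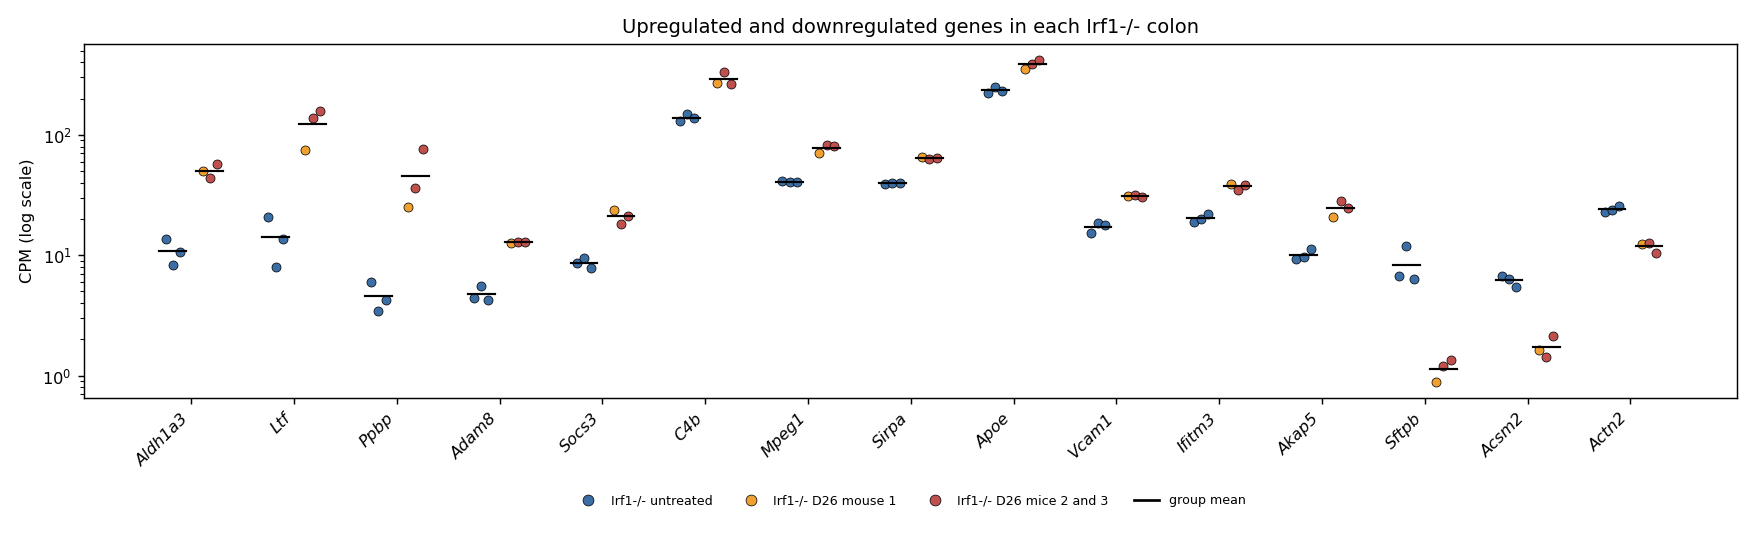
CPM (log axis) of 15 of the 32 called genes in each Irf1-/- colon. Each point is 1 mouse, bars are group means, blue points are untreated mutants, orange is D26 mouse 1 and red are D26 mice 2 and 3. Treated and untreated mice did not overlap for any of the 15 genes, which were picked by the test on these mice, so that this is no further support. Sftpb, Acsm2 and Actn2 were the lower ones at D26, and Sftpb and Acsm2 met the filter on low counts through the untreated mice alone.

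Complement genes were the group with the next most members that rose. Of 31 listed genes 19 were tested, 9 rose and 0 fell, 17 were positive and the median log2 FC was 0.55. All D26 libraries lay above all untreated ones for 16 of the 19, where 12.5% of all genes did so. C4b, a component of the classical pathway, was at 131, 148 and 137 CPM before and at 271, 333 and 265 CPM after treatment (log2 FC 1.06, SE 0.10, adjusted p = 0.00529). C3, on which all complement pathways converge, was at 169, 208 and 155 CPM and then 359, 348 and 281 CPM (0.89, SE 0.13, adjusted p = 0.0176). The treated levels of both genes were well above the untreated ones. C4a, a near copy of C4b, rose from 42.0 ± 5.09 to 76.6 ± 11.7 CPM (log2 FC 0.86). The initiating proteases C1ra, C1rb and C1s had log2 FC of 0.54, 0.55 and 0.55, and the recognition chains C1qb and C1qc of 0.62 and 0.59. Leaving out 1 mouse moved the median of the list between 0.50 and 0.56. Cfb, which drives the alternative pathway, did not pass (-0.10, adjusted p = 0.59), nor did the receptors C3ar1 (0.55, adjusted p = 0.091) and C5ar1 (0.66, adjusted p = 0.063). The lists share members, so that their counts of risen genes overlap. C1qb and C1qc were also counted among the macrophage genes. Ccr2 and Cx3cr1 were counted among macrophage and chemokine genes, and Csf1r among macrophage and cytokine genes.

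Among chemokines and their receptors, 19 of 51 listed genes were tested, 6 rose, 17 were positive and the median log2 FC was 0.45. Ppbp, a chemokine for neutrophils that platelets release, was at 5.95, 3.47 and 4.22 CPM in untreated mutants and at 25.2, 35.9 and 75.8 CPM at D26. Its treated levels spread over a wide range but all exceeded the untreated ones (log2 FC 3.33, SE 0.41, adjusted p = 0.00901). The platelet genes Pf4 and Itgb3 did not pass (0.45 and 0.10, adjusted p = 0.20 and 0.62). Cxcl5, another ligand of Cxcr2, rose from 8.48 ± 2.01 to 20.2 ± 3.26 CPM (1.25, adjusted p = 0.0185). Ccr1 rose by 0.93 and Cxcl12, the stromal ligand of Cxcr4, by 0.30 on the log2 scale. Without D26 mouse 1, 2 of the 19 genes rose, and Ccr1, Ccr2, Cx3cr1 and Cxcl12 no longer passed.

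Of 53 listed cytokine and cytokine receptor genes 39 were tested and 6 rose, all of them receptor chains, while the list's median log2 FC was 0.07. Ligands such as Il1b, Il6, Il10, Il17a, Il22 and Tnf were not in the table, so that a rise in them could not be tested. Osmr, the receptor chain for oncostatin M, was at 16.7, 17.01 and 18.7 CPM before and 31.1, 31.7 and 26.7 CPM after treatment. The 2 groups were far apart (log2 FC 0.77, SE 0.099, adjusted p = 0.0106). Il6st, the gp130 chain that pairs with it, rose by 0.33, Il4ra by 0.60, Il10ra by 0.68 and Csf2rb by 0.88. Socs3, the inhibitor of signalling through gp130 and STAT3 whose promoter is printed above, was at 8.57, 9.44 and 7.79 CPM and then at 23.9, 18.04 and 21.2 CPM (log2 FC 1.29, SE 0.14, adjusted p = 0.00665). It was higher in all 3 treated mice.

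The TNF receptor superfamily moved in part. Of 26 listed genes 13 were tested, 3 rose and 0 fell, and the median log2 FC was 0.06. Tnfrsf11b, the decoy receptor osteoprotegerin, was at 4.88, 4.94 and 4.71 CPM in untreated mutants and at 15.4, 9.82 and 13.2 CPM at D26 (log2 FC 1.40, SE 0.18, adjusted p = 0.0105). Tnfrsf1b, the TNF receptor of leukocytes, was at 33.1, 34.1 and 32.9 CPM and then 61.5, 47.05 and 45.04 CPM (0.62, SE 0.12, adjusted p = 0.0357), with D26 mouse 1 the highest. Tnfrsf1a, the TNF receptor found on most cells, rose by 0.42 (adjusted p = 0.0392). Ltbr and Fas did not pass (0.06 and -0.03).

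The adhesion molecules Vcam1 and Icam1, by which leukocytes leave the blood, were the only 2 of 17 tested endothelial genes that rose, although all 17 were positive (median log2 FC 0.31). Vcam1 was at 15.2, 18.6 and 17.9 CPM before and at 30.9, 31.7 and 30.3 CPM after treatment (0.85, SE 0.097, adjusted p = 0.00713). Icam1 was at 12.6, 15.1 and 11.2 CPM and then 23.8, 27.8 and 19.3 CPM (0.87, SE 0.16, adjusted p = 0.0338). Neither gene's groups overlapped. Pecam1 and Cdh5, which mark endothelial cells in general, did not pass (0.29 and 0.49, adjusted p = 0.20 and 0.12).

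Lymphocyte genes were mostly below the filter. Of 25 listed T cell genes 5 were tested, and Cd4, which macrophages can also carry at a low level, rose from 6.48, 9.71 and 7.79 CPM to 15.3, 16.3 and 12.99 CPM (log2 FC 0.90, SE 0.17, adjusted p = 0.0343). Cd8b1, a chain of the cytotoxic T cell coreceptor, had a log2 FC of -0.46 (adjusted p = 0.075), and Cd8a was not in the table. None of 14 listed genes of NK cells and cytotoxic lymphocytes was in the table. Of 14 tested genes of B cells and plasma cells, 0 passed with edgeR's test, 2 rose with DESeq2 and 4 had an unadjusted p under 0.05.

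Epithelial repair genes rose in part. Of 33 tested members 6 rose and 0 fell, 30 were positive and the median log2 FC was 0.43. Prss22, an epithelial serine protease, went from 1.60, 0.846 and 0.968 CPM to 6.01, 5.91 and 10.3 CPM (2.70, SE 0.32, adjusted p = 0.00772), and Psca, a membrane-anchored protein of the Ly6 family, from 5.63 ± 2.47 to 18.9 ± 2.64 CPM (1.74, adjusted p = 0.0207). Both were low before treatment and above every untreated value after it, and Prss22 met the filter on low counts through the D26 mice alone. Anxa1, a resolution factor of inflammation, rose from 238, 196 and 183 CPM to 345, 328 and 351 CPM (0.73, adjusted p = 0.0155). Ly6a, Ly6d and Emp1 had log2 FC of 0.51, 0.94 and 0.55, and without D26 mouse 1 the adjusted p of Ly6a and Emp1 was 0.0561 and 0.0551. Among 21 tested antimicrobial and oxidase genes of the epithelium, Wfdc18, a secreted protease inhibitor, was upregulated along with Ltf (1.91, adjusted p = 0.00713), and Duox2 and its maturation factor Duoxa2, which make hydrogen peroxide at the mucosal surface, did not pass (0.56 and 0.70, adjusted p = 0.30 and 0.273).

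Aldh1a3, which makes retinoic acid from retinal, and Mpeg1 shared the smallest adjusted p of the whole table. Aldh1a3 was at 13.7, 8.37 and 10.7 CPM in untreated mutants and at 49.8, 44.1 and 57.5 CPM at D26 (log2 FC 2.21, SE 0.17, adjusted p = 0.00328). The lowest treated level was well above the highest untreated one. Adam8, a sheddase of inflamed tissues, was nearly constant at D26, at 12.6, 12.97 and 12.8 CPM, after 4.44, 5.57 and 4.22 CPM (1.43, SE 0.14, adjusted p = 0.00665). Eya2, a transcriptional coactivator and phosphatase, rose from 1.37 ± 0.239 to 6.31 ± 0.735 CPM (2.20, adjusted p = 0.00435), and Runx1, a transcription factor of blood and epithelial progenitors, from 27.8 ± 0.731 to 43.0 ± 0.982 CPM (0.63, adjusted p = 0.00665). The remaining upregulated genes were AI747448 (log2 FC 2.54), Lgi2 (1.33), Snora74a, a small nucleolar RNA (0.86), Akap5 and Lrrc17 (1.28 and 1.18) and the interferon-induced membrane proteins Ifitm1 and Ifitm3.

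Ifitm1 was at 4.70, 5.65 and 5.50 CPM before and 13.5, 14.7 and 11.2 CPM after treatment, and Ifitm3 at 18.7, 20.04 and 22.04 CPM and then 39.4, 35.1 and 38.7 CPM (log2 FC 1.31 and 0.90, adjusted p = 0.00713 and 0.00665). The groups were separate for both. Of 42 tested genes of the interferon-inducible list, which did not contain these 2, 0 passed with edgeR's test, where 1.5% of all genes rose. With DESeq2 3 of the 42 rose (467 of all 12692 genes), and 11 had an unadjusted p under 0.05 (2361 of all). Of the 42, 34 were positive, with a median log2 FC of 0.27. Gbp2, a guanylate-binding protein, had a log2 FC of 0.28 (adjusted p = 0.305). Of 24 tested genes of MHC class I and peptide loading, 0 passed (edgeR), 11 were positive and the median was -0.07. With DESeq2 1 of them rose and 2 fell, and 4 had an unadjusted p under 0.05. Tap1, the peptide transporter, was at 22.7, 36.3 and 22.8 CPM before and 28.9, 43.9 and 24.95 CPM after treatment (0.26, adjusted p = 0.63). In the MHC class II list 12 of 13 tested genes were positive (median 0.32), and Lgmn, an endosomal protease, rose (0.57, adjusted p = 0.0213).

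**Figure D3:**
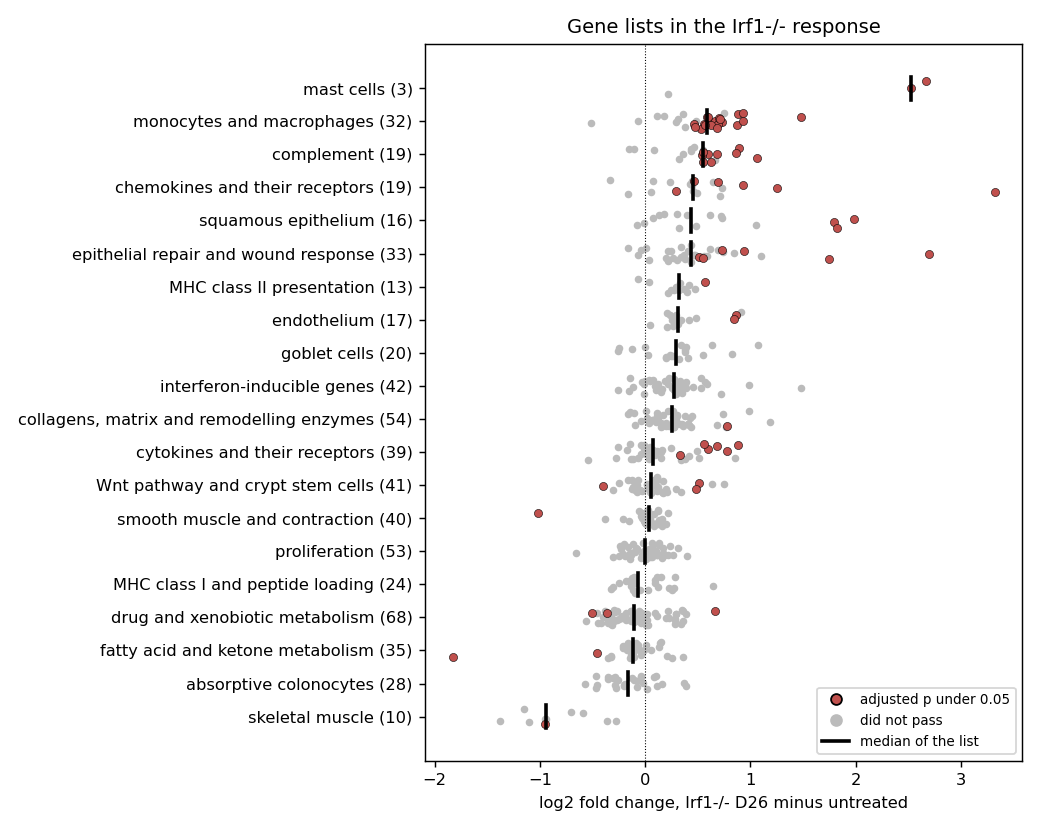
Log2 FC between D26 and untreated Irf1-/- colons for the tested members of 20 gene lists (number tested in parentheses). Each point is 1 gene, red where its adjusted p was under 0.05, and the black bar is the list's median, which was 0.59 for monocytes and macrophages and -0.95 for skeletal muscle. Of the 3 mast cell genes, 2 met the filter through the D26 mice alone.

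Of 53 tested proliferation genes 0 passed (edgeR), 7 had an unadjusted p under 0.05 (2361 of all 12692 genes) and DESeq2 called 0 higher and 1 lower. The median log2 FC was -0.00, and 26 were positive. Mki67, the marker of dividing cells, was at 309.8, 255 and 225 CPM before and 314, 325 and 214 CPM after treatment, with overlap (0.11, adjusted p = 0.785). Without D26 mouse 1, 7 of the 53 were positive, 2 fell and the median was -0.18. Of 41 tested genes of the Wnt pathway and crypt stem cells 2 rose and 1 fell. Lgr5, the receptor that marks crypt base stem cells, was at 37.1, 35.9 and 38.8 CPM before and 27.2, 30.2 and 27.6 CPM after treatment, lower in every treated mouse (-0.40, SE 0.077, adjusted p = 0.0392), and its adjusted p was 0.0538 without D26 mouse 1. Cd44, a hyaluronan receptor and Wnt target, rose from 74.9 ± 2.38 to 107 ± 5.53 CPM (0.51, adjusted p = 0.00901), and Sfrp1, a secreted Wnt antagonist, by 0.48. Dact2, an inhibitor of Wnt and TGF-beta signals, did not pass (-0.09, adjusted p = 0.768).

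Of 28 tested genes of absorptive colonocytes, the water and salt transporting cells of the surface, 0 passed (edgeR), 8 had an unadjusted p under 0.05, DESeq2 called 2 higher and 1 lower, and 7 were positive (median log2 FC -0.16). Car1, a carbonic anhydrase of surface colonocytes, was at 853, 742 and 882 CPM and then 369, 603 and 698 CPM (-0.57, adjusted p = 0.172). Of 20 tested goblet cell genes 0 passed (edgeR), 7 had an unadjusted p under 0.05, DESeq2 called 4 higher and 1 lower, and 16 were positive (median 0.29). Muc2, the gel-forming mucin of the colon, was at 3805, 3624 and 3737 CPM before and 4323, 4652 and 4295 CPM after treatment, a small difference without overlap (0.25, SE 0.068, adjusted p = 0.0946).

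In the list of drug and xenobiotic metabolism 20 of 68 tested genes were positive and the median log2 FC was -0.11. Cyp2c68, a cytochrome P450 of a cluster of similar genes, fell from 183, 163 and 176 CPM to 109.97, 121 and 138 CPM (-0.50, adjusted p = 0.0342), Gstm2, a glutathione transferase, fell by 0.37, and Gsta4, which detoxifies lipid peroxidation products, rose by 0.66. With D26 mouse 1 left out, 35 of the 68 were positive (median 0.00), 3 rose and 1 fell, and the adjusted p of Gstm2 was 0.058. Among 35 tested genes of fatty acid and ketone metabolism, 8 were positive (median -0.12), and the acyl-CoA synthetases Acsm2 and Acsm3 fell. Acsm2 was at 6.70, 6.37 and 5.46 CPM and then 1.64, 1.42 and 2.14 CPM, below all untreated values (-1.83, SE 0.20, adjusted p = 0.00665), and Acsm3 fell by 0.46 (adjusted p = 0.0322).

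The other downregulated genes were Sftpb, a surfactant protein, Actn2, the alpha-actinin of striated muscle, Trim43b, A430033K04Rik and 1700110I01Rik. Sftpb was at 6.70, 11.8 and 6.34 CPM before and 0.884, 1.1995 and 1.34 CPM after treatment (log2 FC -2.86, SE 0.31, adjusted p = 0.00665). Actn2 was at 22.8, 23.6 and 25.6 CPM and then 12.4, 12.7 and 10.4 CPM (-1.02, SE 0.11, adjusted p = 0.00665). All treated mice were below all untreated ones for both genes. A430033K04Rik was at 147, 147 and 148 CPM in untreated mutants and at 73.8, 96.3 and 73.8 CPM at D26 (-0.86, adjusted p = 0.00845), and 1700110I01Rik and Trim43b had log2 FC of -1.14 and -0.70.

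Markers of tissues next to the distal colon differed between D26 and untreated mutants, among them those of the striated muscle that surrounds the anal canal. How much of such tissue each sample held was not tested. All 10 tested skeletal muscle genes were negative (median log2 FC -0.95), 1 of them fell, Myh2 (-0.95, adjusted p = 0.045), and 8 had an unadjusted p under 0.05. Their summed level was 268 to 381 CPM in untreated mutants and 132 to 247 CPM at D26. Further genes of striated muscle, named after their values were seen, fell as well. Ttn, the giant sarcomere protein, was at 415, 543 and 414 CPM and then 231, 223 and 282 CPM (-0.90, SE 0.13, adjusted p = 0.0176), and Myh8, Myl3, Mybpc1 and Car3 had log2 FC of -0.99, -1.37, -1.05 and -1.31. Without D26 mouse 1, 4 of the 10 listed genes fell, without D26 mouse 3, 2 did, and without D26 mouse 2 or any untreated mouse, 0 did. The list of smooth muscle genes had a median of 0.03, with Actn2 as its only gene that passed. Acta2 and Myh11, its defining contractile genes, had log2 FC of -0.00 and 0.05.

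Of 16 tested squamous epithelial genes, which mark the skin-like lining of the anal canal, 3 rose and 14 were positive (median log2 FC 0.44). Krt14, a keratin of basal squamous cells, was at 64.6, 60.9 and 53.3 CPM before and 135, 220.2 and 353 CPM after treatment (1.99, SE 0.29, adjusted p = 0.0189). Krt5, its partner, and Krt6a, a keratin of injured epidermis, had log2 FC of 1.79 and 1.82. D26 mouse 3 was the highest and mouse 1 the lowest treated mouse for all 3. The keratins of differentiated squamous cells, Krt4 and Krt13, and Lor did not pass (0.30, 0.73 and 0.13). The summed level of the 16 genes was 676 to 1016 CPM in untreated mutants, and 879, 1607 and 1876 CPM in D26 mice 1, 2 and 3, so that mouse 1 lay within the untreated range. Without mouse 1, 5 of the 16 rose (median 0.65), and without D26 mouse 2, 1 did (0.26). The repair genes Ly6d and Psca are also expressed by squamous epithelium, and the part of these neighbouring tissues in the response was not tested.

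**Figure D4:**
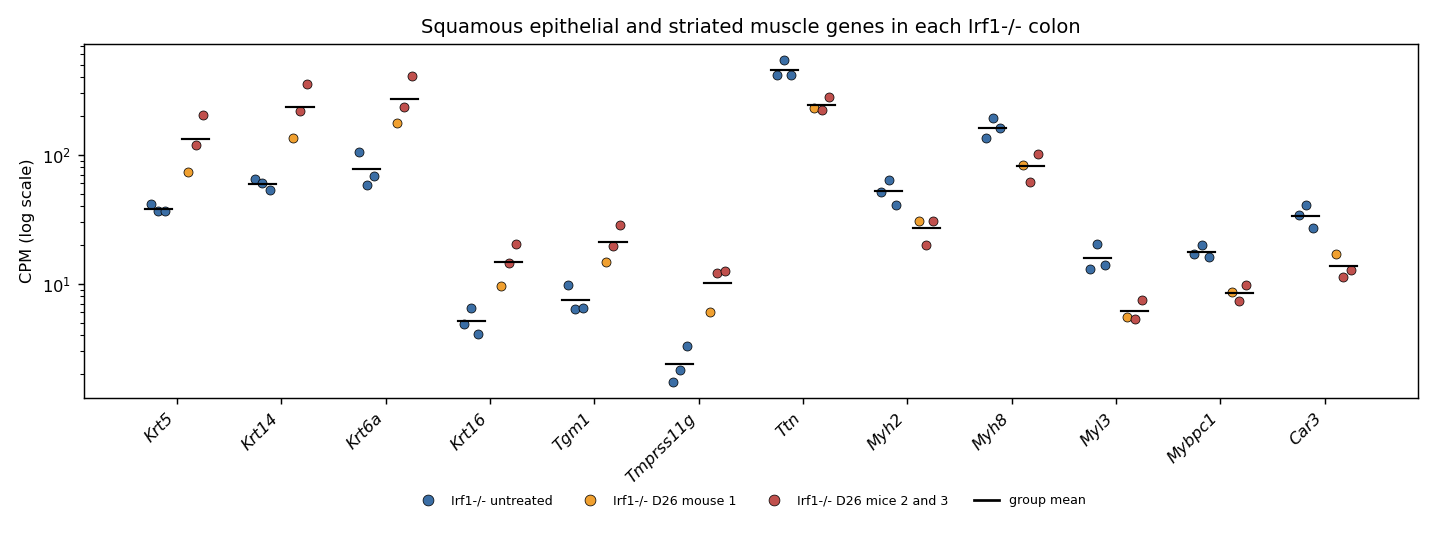
CPM (log axis) of 6 squamous epithelial genes (Krt5 to Tmprss11g) and 6 striated muscle genes (Ttn to Car3) in each Irf1-/- colon. Each point is 1 mouse, bars are group means, orange is D26 mouse 1, and the genes other than the list members Krt5, Krt14, Krt6a and Myh2 were picked after their values were seen. Every treated mouse lay above the untreated ones for these 6 squamous genes and below them for these 6 muscle genes, while among the 16 listed squamous genes 3 were higher in every treated mouse.

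Of 54 tested genes of collagens, matrix and remodelling enzymes 49 were positive (median log2 FC 0.26) and Col7a1, the anchoring collagen beneath squamous and other epithelia, rose (0.78, adjusted p = 0.0399). D26 mouse 1 had the highest summed level of this list, 15758 CPM, against 10283 to 12141 CPM in untreated mutants and 11241 and 12655 CPM in the other treated mice. Without mouse 1, 6 of the 54 rose, 44 were positive and the median was 0.12. Of 16 tested fibroblast genes 0 passed (edgeR), 6 had an unadjusted p under 0.05, DESeq2 called 1 higher, and 14 were positive (median 0.27). Without mouse 1, 1 of the 16 rose and the median was 0.12. Of 40 tested genes of the p53 response and repair of alkylated DNA, chosen because AOM is an alkylating agent, 0 passed (edgeR), 4 had an unadjusted p under 0.05, DESeq2 called 1 higher and 1 lower, and the median was 0.02.

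To ask which of these changes differed from those of B6 mice, the responses of both genotypes were compared in 1 model of 12 libraries, with the B6 D26 mice and the B6 controls tabulated with them (control set 1). Of 12483 genes in both tables, 3 (0.024%) had a more positive and 3 (0.024%) a more negative response in Irf1-/- mutants at an adjusted p under 0.05, and 2108 had an unadjusted p under 0.05. Akap5, an anchoring protein for protein kinase A, had a log2 FC of 1.28 in mutants and -0.55 in B6 mice (difference 1.83, adjusted p = 0.000675). In mutants it was at 9.28, 9.62 and 11.3 CPM before and 20.9, 28.0 and 24.7 CPM after treatment. Lrrc17, a secreted leucine-rich repeat protein, was at 10.8, 11.5 and 14.9 CPM and then 25.6, 30.2 and 28.4 CPM in mutants, with log2 FC of 1.18 and -0.42 in the 2 genotypes (difference 1.60, adjusted p = 0.00611). With B6 control set 2 in place of set 1, 0 genes passed in either direction (edgeR's quasi-likelihood test, 1854 with an unadjusted p under 0.05), while DESeq2 with set 1 called 258 more positive and 144 more negative. Without B6 D26 mouse 1, 14 genes were more positive and 28 more negative in mutants, and without B6 D26 mouse 2 these were 220 and 51. Each of the other 10 mice left out in turn gave 2 to 4 and 0 to 8. These 2 mice also had little Xist (25.2 and 5.96 CPM), unlike B6 D26 mouse 3 (2343 CPM). Irf1-/- D26 mouse 1 had little too (11.6 CPM), while every untreated mouse of both genotypes held at least 319 CPM. The labels give no sex, and the part of sex in the differences between treated and untreated mice was not tested.

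Of the 32 called genes of the mutant response 26 were tested in both genotypes, and 22 of these had the same sign in B6 mice, 10 with an adjusted p under 0.05 there. The 26 were picked by their values in mutants, and the same shares over all genes are not given here. The difference between genotypes had an adjusted p under 0.05 for 2 of the 26, Akap5 and Lrrc17. It had an unadjusted p under 0.05 for 11 of them, and for 2108 of all 12483 genes. Ltf, Ppbp, AI747448, Aldh1a3, Adam8 and Socs3 had similar values in B6 mice (log2 FC 3.14, 3.11, 2.48, 1.97, 1.37 and 1.11). The values of the macrophage genes Mpeg1, Sirpa, Apoe and Lyz1 were 0.67, 0.39, 0.39 and 0.41 in B6 mice, and the difference did not pass for any of the 4 (adjusted p = 0.499, 0.326, 0.528 and 0.617). These 4 were picked by their values in mutants. Over whole lists, 28 of 32 macrophage, 16 of 19 complement, 13 of 17 chemokine and 24 of 32 repair genes were positive in B6 mice. Their medians were 0.40, 0.24, 0.13 and 0.58 there, and 0.59, 0.55, 0.45 and 0.43 in mutants. Muc2 had a log2 FC of 1.68 in B6 mice against 0.25 in mutants, a difference of -1.43 that did not pass either (adjusted p = 0.112). The 10 skeletal muscle genes were positive in B6 mice (median 0.65) and negative in mutants, and none of their differences passed an adjusted p of 0.05. Of 24 genes of MHC class I and peptide loading, 20 were positive in B6 mice (median 0.42) and 11 in mutants (-0.07). Of the proliferation genes, 41 of 51 were positive in B6 mice (median 0.24) and 26 of 53 in mutants. None of the differences in these lists passed either. The treated B6 libraries had slopes of log2 deviation on GC content from 0.139 to 0.285 per 10 percentage points, those of the 12 other libraries lay between -0.126 and 0.0314, and the part of this in the differences was not tested. Within the mutant response, the median log2 FC was -0.04 in the tenth of genes with the lowest GC content and 0.03 in the tenth with the highest.

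**Figure D5:**
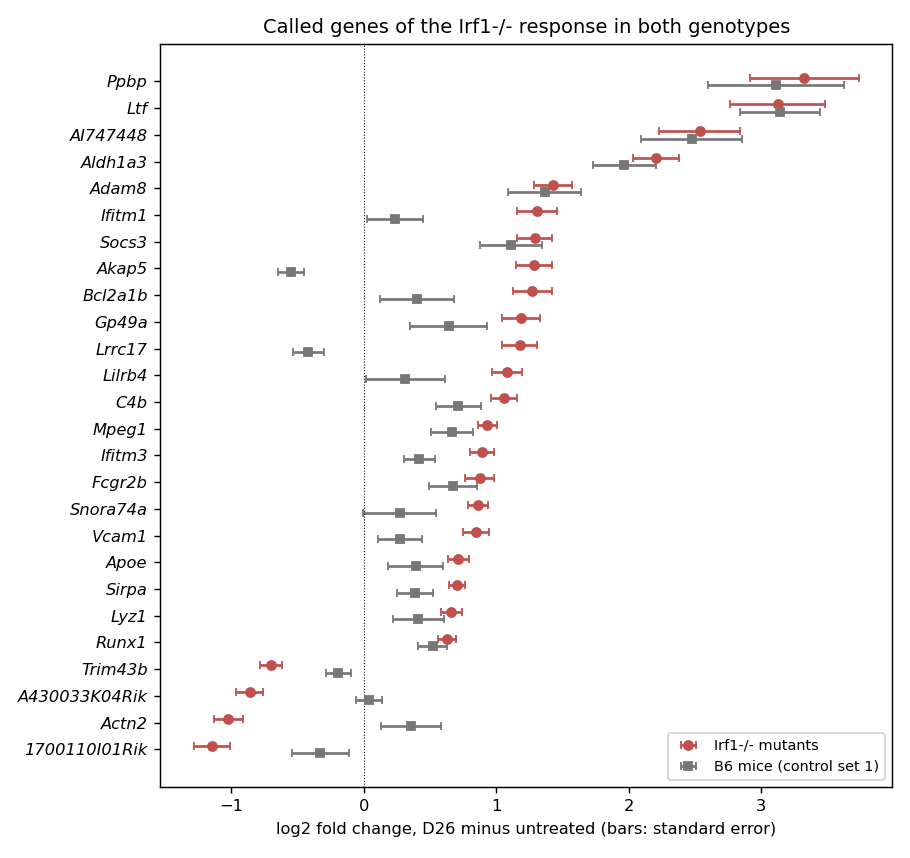
Log2 FC between D26 and untreated colons, with standard errors, of the 26 called genes of the Irf1-/- response that were also tested in B6 mice. Red circles are Irf1-/- mutants and grey squares B6 mice with control set 1. Both genotypes lay close together for the upper 4 genes, and Akap5 and Lrrc17 were above 0 in mutants and below 0 in B6 mice.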

How the data were processed

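Total RNA of 15 distal colons was sequenced by the authors as rRNA-depleted, stranded libraries with paired reads of 50 bp. The deposited tables hold read counts per gene symbol and library, after genes under 5 CPM were filtered. The authors made them with TopHat2 2.0.9, Bowtie 1.0.0 and featureCounts on mm9, as named in the submitters' processing notes. The 36 normalized columns and the authors' 6 columns per table of fold changes and p-values were not used. Untreated Irf1-/- counts were identical in both tables that hold them.

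Counts were scaled by TMM and tested with the quasi-likelihood test of edgeR 4.0.16 (R 4.3.3), D26 against untreated mutants, with Benjamini-Hochberg adjustment over all 12692 genes, as D26 minus untreated log2 FC. The difference from B6 mice was the interaction term in 12 libraries. Members and the 37 gene lists (1079 genes) were chosen with earlier results of these data known, so that no list is independent support. The genes named were all called genes, up to 5 members of each list with the smallest p, list members that passed, genes the study names, tissue checks, and the 5 smallest p of the interaction. Genes named after their values were seen are said to be so or stand in the closing observations. Nothing states separate cages or batches, and p-values measure the spread between 3 mice per group. Alternatives were RLE size factors, a filter of 10 CPM in 3 libraries, DESeq2 1.42.0, edgeR's exact test, a joint fit of all 15 libraries, a block for the replicate number, B6 control set 2, and each mouse left out. GC content came from the longest GENCODE M21 transcript of 94.2% of the 12370 genes in all tables. Promoters came from RefSeq (GRCm38.p6) and not from the build of the counts. Total counts were nearly equal between libraries, and whether they had been scaled to this before deposit was not tested.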

Additional observations from a re-analysis of the deposited data

Results flagged for a closer look

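The response to AOM/DSS differed between Irf1-/- mutants and B6 mice for 6 genes at an adjusted p under 0.05 (edgeR's quasi-likelihood test of the interaction, 12 libraries). The log2 FC in mutants exceeded that in B6 mice by 1.83 for Akap5 (adjusted p = 0.000675), by 1.60 for Lrrc17 (0.00611) and by 1.17 for OTTMUSG00000016609 (0.0352). It was lower in mutants, with differences of -1.37 for Klk1b11 (0.0198), -0.943 for Klk1b4 (0.0402) and -0.846 for Klk1b5 (0.0467). Klk1b11 was at 14.2, 15.4 and 12.9 CPM in untreated mutants and at 9.24, 9.33 and 7.86 CPM at D26 (log2 FC -0.68 in mutants and 0.70 in B6 mice). The Klk1b genes are kallikreins with near-identical sequences in 1 cluster, among which reads could have been divided, and they are not 3 independent observations. With B6 control set 2, 0 genes passed.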

How the results depend on the processing

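RLE size factors changed no count of calls by more than 1.5 times. Of the Irf1-/- response, with a filter of 10 CPM in 3 libraries, which left 10965 genes to test, 12 genes were upregulated and 1 downregulated. With DESeq2 these were 152 and 69 (467 rose and 340 fell), and with edgeR's exact test 177 and 72 (513 rose and 355 fell), and all 32 called genes were among the calls of both. When each mouse was left out in turn, between 0 and 50 genes were upregulated, 0 and 11 downregulated, 11 and 238 rose and 3 and 160 fell. The lowest counts came without an untreated mouse, when 1568 to 1768 genes had an unadjusted p under 0.05. Among 2763 results of named genes under these alternatives, 509 lost the threshold, 130 gained it and none of those past it changed sign. These results include genes that had not passed with all mice and could not lose it. Without untreated mouse 1, 2 and 3 in turn, 108, 106 and 110 of the 235 named genes lost it. The joint fit of 15 libraries called 28 genes, 15 of them among the 32. It covered the 12370 genes in all tables, without the called genes Sftpb, Eya2, Prss22, Wfdc18, Acsm2 and Lgi2.

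A replicate block gave 40 upregulated and 8 downregulated genes. Deviations of same-numbered mice correlated by -0.041, 0.033 and 0.25, and those of mice with different numbers by -0.19 to 0.15. So few mice cannot decide whether the numbers pair them. For the difference from B6 mice the replicate block left 3 genes more positive and 0 more negative. It gave 0 and 0 with control set 2 (1118 and 736 at an unadjusted p under 0.05) and 258 and 144 with DESeq2. Leaving out 1 mouse gave 2 to 220 more positive and 0 to 51 more negative genes, with both highest counts without B6 D26 mouse 2. Without B6 D26 mouse 1 it gave 14 and 28. The causes were not tested.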

Other observations

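Further genes, chosen after their values were seen, changed in Irf1-/- colons. Dhrs9, a retinol dehydrogenase, was at 4.79, 8.33 and 7.57 CPM in untreated mutants and at 46.96, 20.3 and 20.2 CPM at D26 (log2 FC 2.08, adjusted p = 0.0295, edgeR). Stra6, a membrane receptor for vitamin A uptake, was at 2.66, 4.14 and 5.28 CPM and then 10.4, 8.84 and 15.9 CPM (1.54, adjusted p = 0.0347). All treated mice were above all untreated ones for both genes, and D26 mouse 1 was far the highest for Dhrs9. In B6 mice their log2 FC were 2.66 and 1.30.

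Serpina3n, an acute phase protease inhibitor, was at 16.3, 19.4 and 19.2 CPM before and 81.7, 43.4 and 45.7 CPM after treatment (1.64, adjusted p = 0.0167). Arg1, the arginase of alternatively activated macrophages and of squamous epithelium, had a log2 FC of 1.59 (adjusted p = 0.0359). Adamdec1, a protease of intestinal macrophages and stroma, rose from 152, 185 and 196 CPM to 389, 268 and 299 CPM (0.84, adjusted p = 0.0295), while its log2 FC in B6 mice was 0.10 and the difference did not pass (adjusted p = 0.114). Lipa, an acid lipase, rose by 0.40, Ctsc, a cathepsin, by 0.38, Nckap1l, a regulator of leukocyte actin, by 0.54 and Capg, an actin capping protein, by 0.76 on the log2 scale. Lgals9, a galectin, went from a mean of 20.8 to 41.7 CPM (1.00, adjusted p = 0.0392).

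Among genes that fell, H19, an imprinted long noncoding RNA, was at 16.1, 17.8 and 16.3 CPM before and 5.31, 7.06 and 8.48 CPM after treatment (-1.26, adjusted p = 0.0124). Fxyd4, a regulator of the sodium pump in the distal colon, was at 35.02, 37.2 and 38.5 CPM and then 11.1, 16.5 and 20.2 CPM (-1.21, adjusted p = 0.0196). Every treated mouse was below the untreated ones for both. Cyp2c67, Cyp2c69 and Cyp2c40, close relatives of Cyp2c68 among which reads may have been divided, had log2 FC of -0.64, -0.61 and -0.47, and the adjusted p of Cyp2c40 was 0.0536 without D26 mouse 1. Atpaf2, Ndufa1, Cox7c and Mrpl27, of the mitochondrial respiratory chain, ATP synthase assembly and ribosome, fell by 0.47, 0.44, 0.33 and 0.41 on the log2 scale. Il2ra, a receptor chain for interleukin 2, went from a mean of 43.7 to 28.5 CPM (-0.61, adjusted p = 0.0388).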
